A study of Mus musculus with 24 samples.

Results

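The D cyclins and the kinases that act with or after them were followed across 4 states of mouse CD4+ T cells and 2 genotypes. The group holds 6 genes, chosen by name: the D cyclins Ccnd1, Ccnd2 and Ccnd3 and the kinases Cdk2, Cdk4 and Cdk6. Every array row whose symbol was one of these names was taken, which gave 12 of the 25697 probes of the table, for 5 of the 6 genes. Cdk4 was not analysed here. Of the 12 probes, 11 passed the filter on detection described below, and each of the 5 genes kept at least 1 of them.

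D cyclins are made when a resting cell receives a growth signal and bind CDK4 or CDK6. The active complexes phosphorylate the RB protein, which frees the E2F factors to switch on the genes of S phase, and CDK2 with cyclin E or A carries the cell onward. INK4 and CIP/KIP proteins hold these kinases back, and in T cells the step from quiescence to division follows antigen receptor and IL-2 signals.

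RNA was hybridised to 24 MouseRef-8 v2 BeadChips of Illumina, with 3 arrays for each of the 8 groups, labelled replicates A, B and C. WT cells and cells lacking BAF180 (gene Pbrm1), a subunit of the PBAF form of the SWI/SNF chromatin remodeling enzyme, were compared in naïve and in Th2 cells, each resting and stimulated. The mice were 4 to 6 weeks old and are called Balb/c in the labels, whereas the methods give a mixed background. BAF180 was removed by deletion of a floxed exon with CD4-Cre, which acts in developing thymocytes, and all the cells of a group came from spleen and lymph nodes of such mice or of WT mice. Resting naïve cells were CD4+CD62L+ cells purified to 95%, and no agent was given to them. Stimulated naïve cells had spent 24 h on plates coated with 1 µg/ml of anti-CD3 together with 2 µg/ml of anti-CD28. Resting Th2 cells were grown from naïve cells on the same coating with IL-4 at 10 ng/ml and anti-IFN-γ at 10 µg/ml, with IL-2 at 100 U/ml added after 24 h and again for expansion from day 3. Stimulated Th2 cells were resting Th2 cells treated for 1.5 h with 50 ng/ml of PMA together with 500 ng/ml of ionomycin, so stimulation differed in agent and in time between naïve and Th2 cells. The labels do not say whether the replicates came from separate mice. The study's text gives 3 pairs of WT and BAF180-deficient mice as the source of array data, without tying them to the letters, and the p-values measure the spread between these arrays.

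A level is the log2 of the background-corrected, quantile-normalised intensity with an offset of 16, and a probe was called detected on an array at a detection p of at most 0.02. Each level is that of a single probe, so levels are compared between groups and not between genes. Between 8047 and 10689 probes were detected per array, and Pbrm1 itself was lower in BAF180-deficient cells in each state, by 1.01 to 1.86 on the log2 scale, with no overlap between genotypes. The 6 CD4 T cell markers were detected on every array, and the 6 Th2 markers summed to at least 18754.5 on each stimulated Th2 array against at most 560.5 on each resting naïve array. Resting Th2 arrays summed to 1289.9 to 2142.6 in WT and 1438.7 to 2463.3 in BAF180-deficient cells. Stimulated naïve arrays summed to 1118.6 to 1942.4 and 865.8 to 2746.3, so this sum did not separate them from resting Th2 arrays. The 4 measured markers of activated T cells, of 5 in the list, were not lowest in resting naïve cells. They summed there to 4899.1 to 8856.7 in WT and 4942.2 to 8872.0 in BAF180-deficient cells. In stimulated naïve cells the sums were 3980.0 to 5106.2 and 2745.3 to 3776.8, and in resting Th2 cells 967.0 to 1530.7 and 885.9 to 1573.3. The cause was not tested. Differences between states were called at an adjusted p under 0.05 and differences between genotypes by criteria taken from the study's methods, both from limma.

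The probes read different parts of the transcripts, and this matters for Ccnd3 and Cdk2, where 1 probe of each lies in the protein-coding part and the brightest lies nearer the 3′ end. Their sequences, 50 bases each and written 5′ to 3′, are shown because these 2 probes gave smaller differences after Th2 stimulation than the brightest probe of the same gene.
Ccnd3, probe ILMN_1246473, from base 164 of its transcript: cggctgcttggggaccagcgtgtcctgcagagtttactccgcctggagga
Cdk2, probe ILMN_1250942, from base 655 of its transcript: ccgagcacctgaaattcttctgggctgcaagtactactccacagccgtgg

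Promoters are shown for the members with a called difference between states that have an entry in the RefSeq promoter table (build GRCm38.p6). Ccnd3 has 2 start sites in it, and Cdk2 and Cdk6 have 1 each. Each line is the 250 bases before a start, 5′ to 3′ on the gene's strand, with motif matches in capitals. The 7 motifs searched on both strands were CACGTG (E-box), TGANTCA (AP-1), TGACGTCA (CRE), TTCNNNGAA (STAT), TTTCCCGC and TTTGGCGC (both E2F) and GGGCGG (GC box), and none of the matches overlapped another.
Ccnd3, chr17:47504801-47505050, plus strand: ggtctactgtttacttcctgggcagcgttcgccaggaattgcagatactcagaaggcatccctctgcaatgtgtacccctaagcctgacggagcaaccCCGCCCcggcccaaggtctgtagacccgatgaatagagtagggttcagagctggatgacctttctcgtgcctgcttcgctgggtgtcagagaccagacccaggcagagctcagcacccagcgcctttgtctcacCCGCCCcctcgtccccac
Ccnd3, chr17:47593217-47593466, plus strand: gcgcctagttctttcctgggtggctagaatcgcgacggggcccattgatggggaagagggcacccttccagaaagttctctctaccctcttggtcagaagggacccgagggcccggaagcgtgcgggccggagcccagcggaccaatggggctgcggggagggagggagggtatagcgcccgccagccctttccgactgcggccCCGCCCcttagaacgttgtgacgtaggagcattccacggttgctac
Cdk2, chr10:128705052-128705301, minus strand: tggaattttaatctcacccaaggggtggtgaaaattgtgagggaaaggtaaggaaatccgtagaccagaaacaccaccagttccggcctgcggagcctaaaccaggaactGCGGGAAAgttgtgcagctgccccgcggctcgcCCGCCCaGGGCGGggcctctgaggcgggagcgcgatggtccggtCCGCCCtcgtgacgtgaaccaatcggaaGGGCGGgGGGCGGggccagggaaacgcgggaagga
Cdk6, chr5:3343643-3343892, plus strand: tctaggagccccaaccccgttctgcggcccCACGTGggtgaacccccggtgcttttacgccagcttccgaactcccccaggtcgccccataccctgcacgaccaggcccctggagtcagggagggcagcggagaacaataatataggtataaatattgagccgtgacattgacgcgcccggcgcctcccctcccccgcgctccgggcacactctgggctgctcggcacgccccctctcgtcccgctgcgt

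The Cdk2 promoter held 1 match to TTTCCCGC, which starts 140 bases before the start site on the opposite strand, and 5 matches to the GC box. TTTCCCGC was present in 0.895% of the 32851 promoter windows of the table and the GC box in 32.7%. The upstream Ccnd3 promoter held 2 GC boxes and the downstream one 1, and neither held any of the other 6 motifs. The Cdk6 promoter held 1 match to CACGTG, 220 bases before its start, and no other. Of the other motifs, CACGTG was found in 6.02% of all windows, TGANTCA in 6.75%, TGACGTCA in 1.55%, TTCNNNGAA in 7.02% and TTTGGCGC in 0.417%. A match is a match of letters only, and its use in these cells was not tested.

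**Figure D1:**
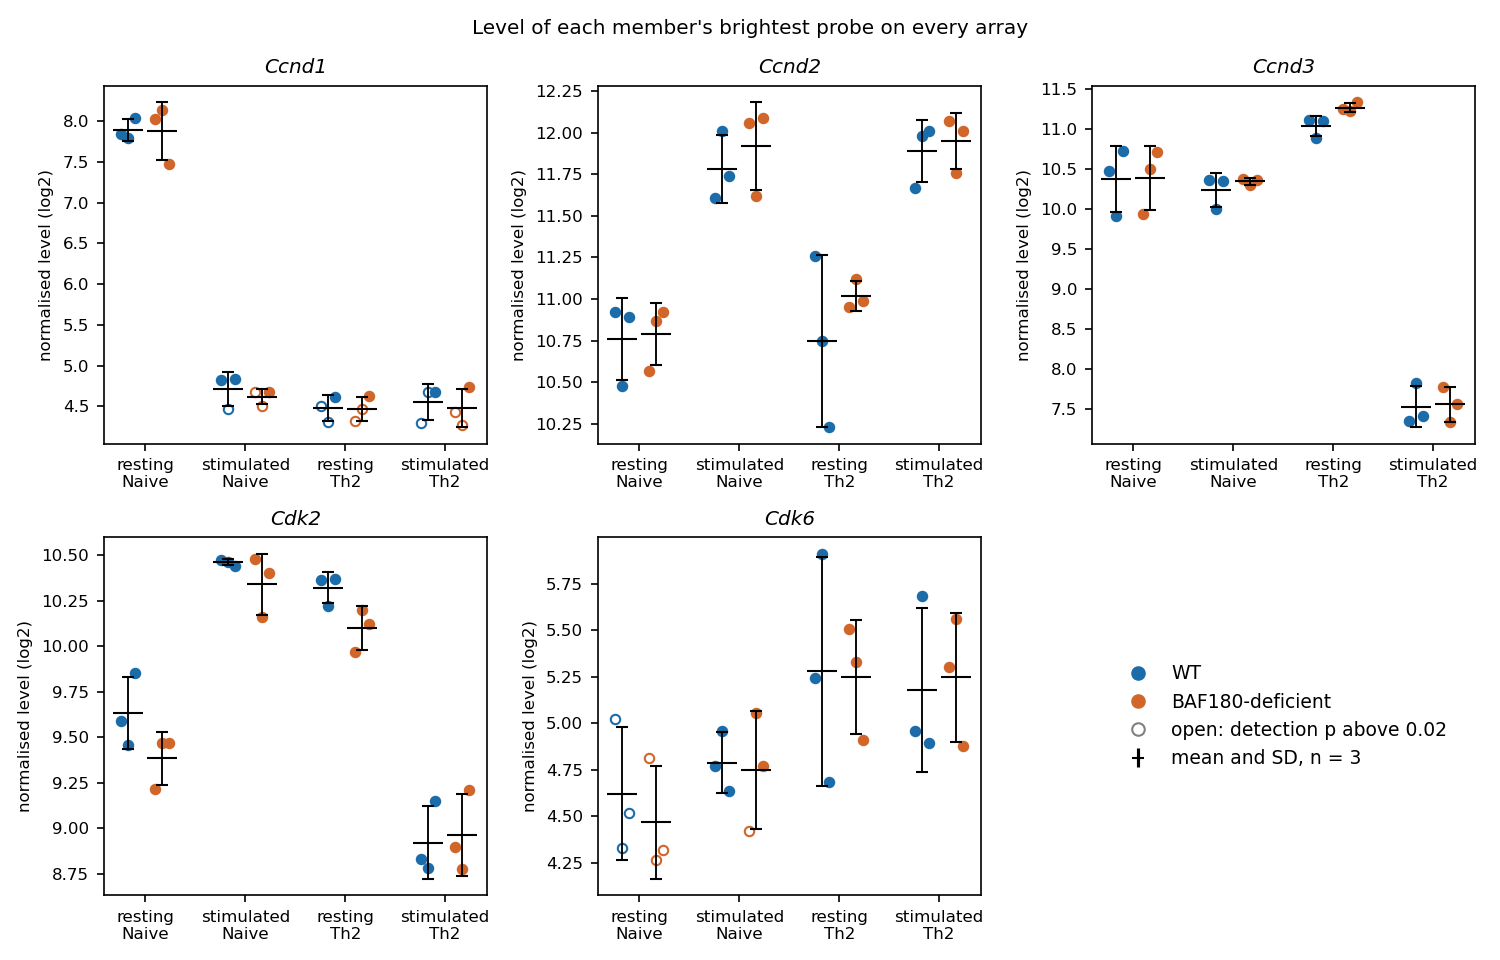
Normalised level (log2, vertical axes) of the brightest probe of each measured member on every array, by cell state, with WT in blue and BAF180-deficient cells in orange. Black lines give the mean and SD of 3 arrays and open points mark arrays with a detection p above 0.02. Ccnd1 stands near 7.88 only in resting naïve cells, Ccnd2 is higher in both stimulated states, and Ccnd3 lies at 7.53 and 7.56 in stimulated Th2 cells.

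Ccnd1, which encodes cyclin D1, was found in resting naïve cells and was at the edge of detection elsewhere. In resting naïve cells its level stood at 7.84, 7.79 and 8.05 on the WT arrays and 8.03, 8.13 and 7.48 on the BAF180-deficient arrays. In the other 3 states it lay between 4.27 and 4.83 on all 18 arrays. Its probe was detected there on 2 of 3 WT and 1 of 3 BAF180-deficient stimulated naïve arrays and on 1 of 3 arrays of each genotype in either Th2 state. The resting naïve arrays stood apart from all the others in both genotypes.

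After stimulation of naïve cells the level of Ccnd1 fell by 3.18 ± 0.17 on the log2 scale (SE, adjusted p = 1.4e-11) in WT, and the log2 difference was -3.26 ± 0.17 (adjusted p = 9.6e-12) in BAF180-deficient cells. Resting Th2 cells were lower than resting naïve cells by a log2 difference of -3.41 in each genotype. As the probe was undetected on part of the arrays outside resting naïve cells, the size of these differences is measured against levels near background. A further 2 probes of Ccnd1 gave the same picture. One of them shares 49 bases with the brightest probe and is not an independent reading, and the other reads a separate stretch. Neither was detected in any other state, so only bounds between group means can be given, which do not allow for the spread between arrays. In WT, resting naïve cells were at least 6.86-fold higher than stimulated naïve cells by the overlapping probe and at least 4.92-fold higher by the separate one. In BAF180-deficient cells the bounds were 8.68-fold and 5.30-fold.

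Marker transcripts of myeloid, erythroid and NK cells were, like Ccnd1, higher in resting naïve cells than in the other 3 states. The summed level of the 4 measured myeloid markers (Lyz2, Csf1r, Cd14 and Fcgr3, of 5 in the list) was 1038.7, 854.5 and 3383.5 on the WT resting naïve arrays A, B and C, where Ccnd1 stood at 7.84, 7.79 and 8.05. On the BAF180-deficient arrays the sums were 1105.3, 1336.4 and 1484.7, with Ccnd1 at 8.03, 8.13 and 7.48. The myeloid sums thus ranked as Ccnd1 did among the WT arrays. Among the BAF180-deficient arrays, C had the highest sum and the lowest Ccnd1. On every array of the other 3 states the sum lay between 78.6 and 95.0, with 3 of the 4 markers undetected. Lyz2, which encodes a lysozyme of macrophages and granulocytes, was lower by a log2 difference of -5.53 after stimulation of WT naïve cells. Summed markers of erythroid cells lay at 346.6 to 12198.3 in resting naïve cells of either genotype and at most at 330.3 in the other states, and those of NK cells at 91.5 to 300.9 and at most at 70.6. Those of B cells lay at 385.0 to 1063.1 and, elsewhere, at 100.0 to 546.4, so that their ranges overlapped. Of the 2 CD8 T cell markers 1 was measured and was detected on every array. It lay at 284.5 to 500.6 in resting naïve cells and at 87.0 to 356.5 elsewhere, again with overlap. Of the 4 stromal markers only Sparc passed the filter, with levels near background. The part of such cells in the level of Ccnd1 was not tested, and in bulk samples fewer cells of a type and less RNA per cell cannot be told apart.

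Ccnd2, which encodes cyclin D2, the D cyclin best known in stimulated lymphocytes, rose with stimulation in naïve and in Th2 cells. Unstimulated naïve cells had levels of 10.92, 10.48 and 10.89 in the WT and of 10.57, 10.87 and 10.92 without BAF180. After 24 h of stimulation it was at 11.61, 12.01 and 11.74 and at 12.06, 11.62 and 12.09. No stimulated array overlapped the resting ones.

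The rise was 1.02 ± 0.21 on the log2 scale (2.03-fold, adjusted p = 0.00037) in WT and 1.13 ± 0.21 (2.19-fold, adjusted p = 0.00014) in BAF180-deficient naïve cells. With the Z-score normalization of the study's methods the WT rise was 0.64 and was not called (adjusted p = 0.064).

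In resting Th2 cells Ccnd2 lay near the resting naïve level, with a wide spread in the WT. The WT arrays were at 11.26, 10.75 and 10.23 and the BAF180-deficient arrays at 10.95, 11.12 and 10.99. Against resting naïve cells the difference was -0.01 (95% interval -0.44 to 0.42) in WT cells and 0.23 (-0.20 to 0.66) in BAF180-deficient cells, neither of which passed the test, although the BAF180-deficient groups did not overlap.

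Stimulation of Th2 cells for 1.5 h brought Ccnd2 to 11.67, 11.98 and 12.01 in WT and to 12.07, 11.76 and 12.01 in BAF180-deficient cells, again above all resting arrays. The rise was 1.14 ± 0.21 (adjusted p = 0.00023) and 0.92 ± 0.21 (adjusted p = 0.0019). The levels of the 2 stimulated states differed by 0.10 (-0.33 to 0.53) in the WT, which did not pass the test. Ordered by level in WT cells, stimulated Th2 and stimulated naïve cells came first and did not differ beyond their spread, and resting naïve and resting Th2 cells followed and did not differ either. The 1 probe of Ccnd2 leaves no second reading.

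Ccnd3, which encodes cyclin D3, the D cyclin known for its role in developing thymocytes, behaved in the opposite way in Th2 cells. Its brightest probe was at 11.12, 10.89 and 11.10 in WT resting Th2 cells and at 11.25, 11.23 and 11.34 in BAF180-deficient ones. After 1.5 h of PMA and ionomycin it was at 7.35, 7.82 and 7.41 and at 7.78, 7.34 and 7.56. The resting and stimulated arrays were over 3 log2 units apart at their nearest.

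The level fell by 3.51 ± 0.20 (11.4-fold, adjusted p = 6.8e-11) in WT Th2 cells, and the log2 difference was -3.71 ± 0.20 (13.1-fold, adjusted p = 4.6e-11) in BAF180-deficient ones. Only 4 of the 14246 probes had a lower difference in the WT. The probe in the coding part also fell, with log2 differences of -1.97 in WT and -1.79 in BAF180-deficient cells. In stimulated WT Th2 cells it was detected on 1 of 3 arrays, so that its fall is measured near background. The levels of the 2 probes over the 24 arrays correlated at r = 0.867 as a description, with groups shared by both. The third probe was detected on no array.

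Stimulation of naïve cells for 24 h left Ccnd3 at 10.37, 10.00 and 10.36 in WT cells, within the range of the resting arrays at 10.48, 9.92 and 10.73. The difference of -0.13 (95% interval -0.55 to 0.29) did not pass the test, nor did that of -0.04 (-0.45 to 0.38) in BAF180-deficient cells. Resting Th2 cells were above resting naïve cells by 0.66 ± 0.20 (adjusted p = 0.014) in WT and by 0.89 ± 0.20 (adjusted p = 0.0018) in BAF180-deficient cells, with no overlap. Without replicate B of the WT resting naïve cells the WT difference was 0.43 and was not called (adjusted p = 0.11), and with Z-score normalization it was 0.43 in WT (adjusted p = 0.12) and 0.44 in BAF180-deficient cells (adjusted p = 0.096). In the fit restricted to the arrays compared, the WT value had an adjusted p of 0.072. Stimulated Th2 cells were also below stimulated naïve cells, by a log2 difference of -2.72 in the WT. In order of level Ccnd3 thus ran from resting Th2 over resting and stimulated naïve cells, which did not differ beyond their spread, to stimulated Th2 cells.

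**Figure D2:**
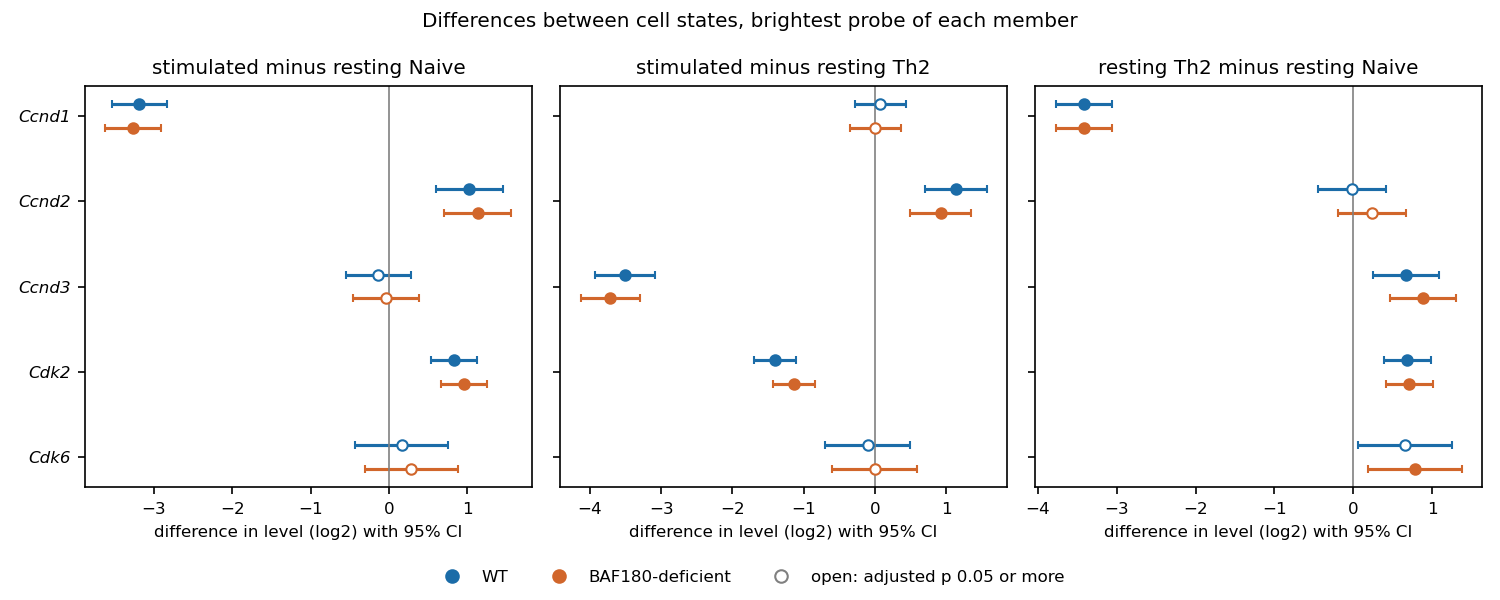
Differences in level between cell states (log2, horizontal axes, with 95% confidence intervals from limma) for the brightest probe of each member, in WT (blue) and BAF180-deficient cells (orange). Filled points passed an adjusted p of 0.05. After Th2 stimulation Ccnd2 lies to the right of 0 and Ccnd3 and Cdk2 to the left, with WT values of 1.14, -3.51 and -1.40.

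Cdk2, the kinase that acts with cyclins E and A, rose when naïve cells were stimulated and fell when Th2 cells were. Its brightest probe was at 9.59, 9.46 and 9.85 in WT resting naïve cells and at 10.47, 10.46 and 10.44 after stimulation. In BAF180-deficient cells the levels were 9.22, 9.47 and 9.47 before and 10.48, 10.16 and 10.40 after. The groups did not overlap.

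The rise was 0.83 ± 0.14 (1.77-fold, adjusted p = 6.8e-05) in WT and 0.96 ± 0.14 (1.94-fold, adjusted p = 1.2e-05) in BAF180-deficient naïve cells. Each of the 3 further probes of Cdk2 rose too and was called in both genotypes, with log2 differences of 0.73 to 1.41.

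Resting Th2 cells were at 10.36, 10.22 and 10.37 in WT and at 9.97, 10.20 and 10.12 in BAF180-deficient cells, above resting naïve cells by 0.69 (adjusted p = 0.00072) and 0.71 (adjusted p = 0.00052). After PMA and ionomycin the levels were 8.83, 8.79 and 9.15 in the WT and 8.90, 8.78 and 9.21 without BAF180. The log2 difference was -1.40 ± 0.14 (2.63-fold, adjusted p = 2.2e-07) in WT cells. It was -1.13 ± 0.14 (2.19-fold, adjusted p = 4.0e-06) in BAF180-deficient cells.

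The probes of Cdk2 parted in this comparison. Those listed at bases 1133 and 1254 fell like the brightest one, by a log2 difference of -1.57 and -1.39 in the WT. For the probe at base 1254 no RefSeq transcript is named, so its place beside the others is uncertain. By contrast the coding probe at base 655 gave -0.50 in WT (adjusted p = 0.091) and -0.13 in BAF180-deficient cells (adjusted p = 0.76), neither of which passed the test. This probe was dim, undetected on all 3 BAF180-deficient resting naïve arrays, and its levels over the 24 arrays correlated with those of the brightest probe at r = 0.435. The other 2 probes reached 0.804 and 0.913. The same split touches the comparison of stimulated Th2 with resting naïve cells, where the log2 difference of the brightest probe was -0.71 in the WT. The coding probe read 0.32 there (adjusted p = 0.22) and, in BAF180-deficient cells, was called higher, by at least 1.34-fold between group means. No direction is therefore given for Cdk2 between those states. Stimulated naïve and resting Th2 cells, which head the order of Cdk2 levels, differed by a log2 value of -0.14 (95% interval -0.43 to 0.15) in the WT, which did not pass the test.

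**Figure D3:**
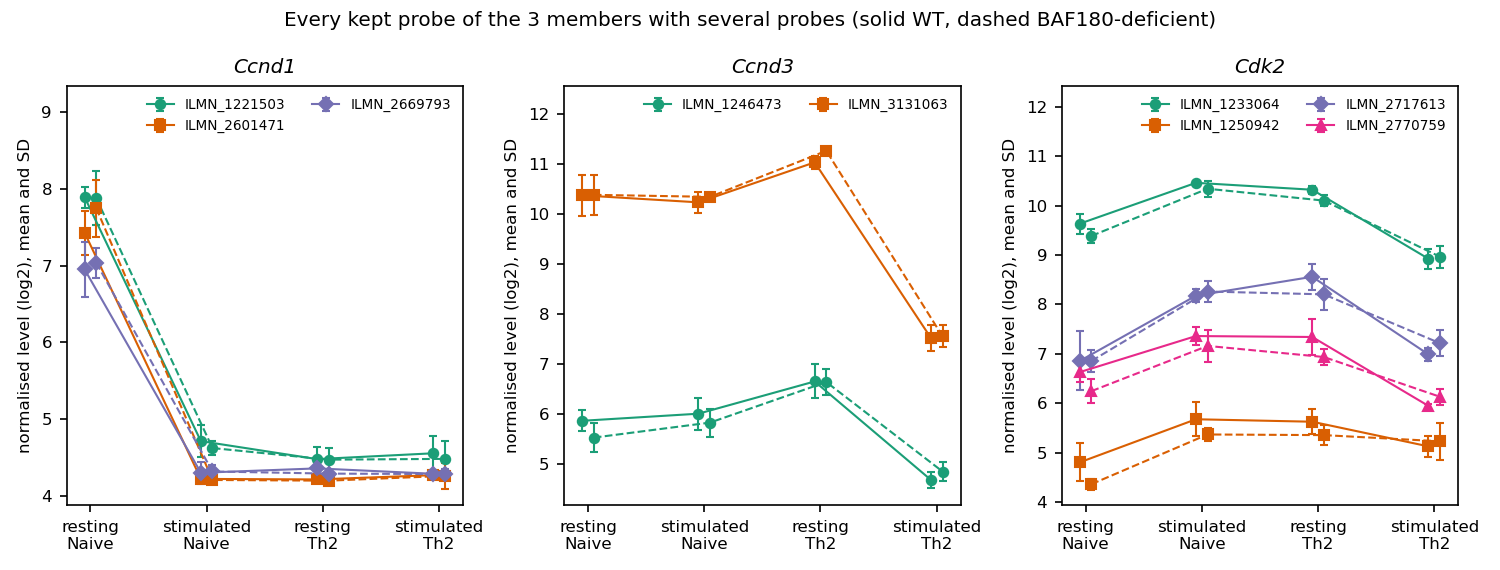
Mean normalised level (log2, with SD over 3 arrays) of every kept probe of Ccnd1, Ccnd3 and Cdk2 in the 4 cell states, solid lines for WT and dashed lines for BAF180-deficient cells. The lines of Ccnd1 probes drop together, both Ccnd3 probes fall in stimulated Th2 cells, and the dimmest Cdk2 probe, ILMN_1250942, differs least between resting and stimulated Th2 cells (-0.50 in WT). Distances between lines reflect the probes and are not differences in gene expression.

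Cdk6, a partner of the D cyclins beside CDK4, was measured by 1 dim probe. It was undetected on all 6 resting naïve arrays (4.33 to 5.02 in WT, 4.26 to 4.82 in BAF180-deficient cells) and detected on all 6 resting Th2 arrays. In those it was at 5.24, 5.91 and 4.68 in WT and at 5.51, 5.33 and 4.91 in BAF180-deficient cells. The WT groups overlapped and the BAF180-deficient groups did not.

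Resting Th2 minus resting naïve gave 0.66 ± 0.28 (adjusted p = 0.081) in WT, which did not pass the test, and 0.78 ± 0.28 (adjusted p = 0.038) in BAF180-deficient cells. Since the probe was undetected in resting naïve cells, the group means come to at least 1.34-fold and at least 1.35-fold apart. These bounds allow for the detection limit and not for the spread between arrays. The 95% intervals of the log2 differences started at 0.064 in WT and 0.19 in BAF180-deficient cells. With the replicate letter as a block the WT value was called (adjusted p = 0.041), as it was without replicate A of the resting naïve (0.86, adjusted p = 0.046) or C of the resting Th2 cells (0.95, adjusted p = 0.018). The call in BAF180-deficient cells was lost with an offset of 50 (adjusted p = 0.071) and without the detection filter (adjusted p = 0.076). It was also lost without either of replicates B and C of the resting naïve or A and B of the resting Th2 cells, where the adjusted p lay between 0.095 and 0.13. Under median centring of the arrays the differences were -0.08 and -0.11. Stimulation of naïve cells gave 0.17 (95% interval -0.43 to 0.76) in the WT and no call. Between the Th2 states the levels overlapped, with 4.96, 5.68 and 4.89 in stimulated WT Th2 cells.

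Read against all probes, the counts of called members stood as follows. For naïve stimulation 3 of the 5 measured genes were called in each genotype, where 43.6% of all probes were called in WT and 41.6% in BAF180-deficient cells. For Th2 stimulation 3 of 5 were called in each, against 27.3% and 25.8% of all probes. Between resting Th2 and resting naïve cells 3 of 5 were called in the WT and 4 of 5 without BAF180, against 34.4% and 34.7%. Resting Th2 against stimulated naïve cells gave 2 of 5 in each genotype (22.3% and 20.5% of probes), and stimulated Th2 against stimulated naïve cells also 2 of 5 (20.1% and 20.5%). Stimulated Th2 against resting naïve cells gave 4 of 5 in the WT and 5 of 5 without BAF180, against 48.5% and 46.3%. These comparisons share arrays with each other and are not independent. The split of all called probes depended on scaling: 54.1% of the calls after WT naïve stimulation were higher, and 19.2% under median centring, which moved the median of all kept probes by -0.74. For WT resting Th2 against resting naïve cells the shares were 53.5% and 17.4%, with a shift of -0.58. For WT Th2 stimulation they were 47.6% and 49.6%, with a shift of -0.11.

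Between genotypes no member was called in any of the 4 states. The paper, using Z-score statistics, counted many more genes as changed in these cells than were called here, with Cdk2 among its Th2 examples. A member that was not called is therefore not shown to be unchanged. The comparison asked whether loss of BAF180 went with another level of these genes. By the genotype criteria 0 of 5 genes passed in each state. Of all probes, 0.681% (resting) and 0.112% (stimulated) passed in naïve cells and 0.0842% (resting) and 0.0913% (stimulated) in Th2 cells. At an unadjusted p under 0.05 the numbers of probes were, in the same order, 973, 321, 489 and 397. Over all 11 kept probes and 4 states, 1 of the 44 values had an unadjusted p under 0.05, that of the Cdk2 probe at base 1254 in resting Th2 cells. The 44 log2 differences ran from -0.44 to 0.32, with 95% intervals within -0.88 and 0.71. For the brightest probes the log2 differences ran from -0.25 to 0.28, and their 95% intervals lay within -0.75 and 0.70.

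The largest of these differences sat in resting Th2 cells for Ccnd2 and in resting naïve cells for Cdk2. Ccnd2 was 0.28 higher (95% interval -0.15 to 0.70) in BAF180-deficient resting Th2 cells, with overlap. Ccnd3 was 0.24 higher there (-0.18 to 0.65), and all 3 BAF180-deficient arrays, at 11.25, 11.23 and 11.34, stood above the 3 WT arrays, at 11.12, 10.89 and 11.10. Its second probe gave the opposite sign, as the mean was 6.65 without BAF180 and 6.66 in WT cells. Cdk2 was -0.25 (-0.54 to 0.04) in resting naïve and -0.22 (-0.52 to 0.07) in resting Th2 cells, where its levels of 9.97, 10.20 and 10.12 all lay below the WT levels of 10.36, 10.22 and 10.37. The 3 further Cdk2 probes, at bases 1133, 1254 and 655, gave -0.36, -0.40 (-0.79 to -0.018) and -0.27 in resting Th2 cells, with overlap. Before adjustment limma's p was 0.041 for the probe at base 1254, and after it 1.00. In resting naïve cells the same probes gave -0.00097, -0.38 and -0.44, and none was called. The 4 probes read the same RNA samples and are not replicates. An arrangement without overlap of this kind was seen for 10.1% of all probes in resting Th2 cells, and an exact permutation test of 3 arrays against 3 cannot give a p below 0.1. Without replicate C of the WT resting naïve cells the count in that state was 1, the dim coding probe of Cdk2, and without replicate C of the BAF180-deficient cells it was 1, the overlapping probe of Ccnd1. The probes called in that state then numbered 616 and 173 in place of 97.

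**Figure D4:**
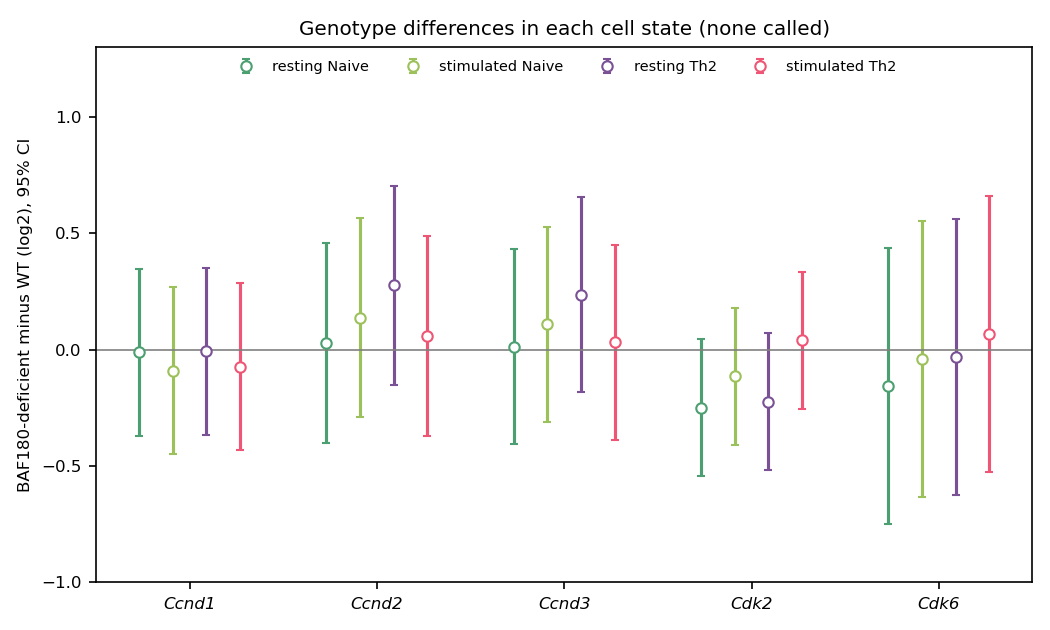
Difference in level between BAF180-deficient and WT cells (log2, with 95% confidence interval from limma, 3 arrays per genotype) for the brightest probe of each measured member in each of the 4 cell states. Every interval includes 0, and the values run from -0.25 to 0.28.

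Nor did the response to stimulation differ between genotypes by the test of that difference. In naïve cells, in Th2 cells and between the resting states 0 of 5 members had an interaction at an adjusted p under 0.05, where 0.00702%, 0% and 0.00702% of all probes did. In the 3 tests 329, 257 and 387 of all probes had an unadjusted p under 0.05. The largest value of a brightest probe was that of Cdk2 in Th2 cells, where the difference between the genotypes' responses was 0.26 (95% interval -0.15 to 0.68) and did not pass the test. The Cdk2 probe at base 1254 gave 0.59 in the same test, where limma's p was 0.036 before and 1.00 after adjustment.

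The genes around the D cyclins were read from 9 lists, with 1 probe, the brightest, for each gene. Of the 4 INK4 inhibitors, which bind CDK4 and CDK6, none was called after stimulation of WT naïve cells and all 4 were higher in resting Th2 than in resting naïve cells, Cdkn2d by 1.44 and Cdkn2c by 1.41. After Th2 stimulation Cdkn2a (1.25) and Cdkn2b (0.76) rose, and Cdkn2d (-2.19) and Cdkn2c (-1.74) fell. The list's median was -0.49, beside 0.00 for all probes. In BAF180-deficient cells the counts were the same, 2 higher and 2 lower.

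Of the 3 CIP/KIP inhibitors, Cdkn1b, which encodes p27, an inhibitor of CDK2 that is high in quiescent cells, was lower after both stimulations and in resting Th2 against resting naïve WT cells. Its log2 difference was -3.06 after naïve stimulation, -2.08 after Th2 stimulation and -1.57 in resting Th2 against resting naïve cells. Cdkn1c was lower in the first and the last of these, by -1.09 and -0.55. Cdkn1a, which encodes p21, was 3.01 higher in resting Th2 than in resting naïve cells and was not called in the stimulations.

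All 3 members of the RB family were called higher in WT resting Th2 than resting naïve cells and lower after Th2 stimulation. Without BAF180, 1 of 3 was called higher between the resting states and 3 lower after Th2 stimulation, while no interaction of this list was called. After Th2 stimulation the log2 difference was -1.78 for Rb1 and -1.19 for Rbl1. After naïve stimulation Rbl1 was called, at 0.66.

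Of the E2F and DP factors 8 of 10 were measured. In WT naïve cells 6 rose and none fell with stimulation, led by E2f1 (2.09) and Tfdp1 (2.09), the partner of E2F in DNA binding. In resting Th2 against resting naïve cells 5 were higher, led by Tfdp1 (1.83) and E2f2 (1.55). After Th2 stimulation E2f2 (-2.93) and Tfdp2 (-0.75) fell and E2f5 (1.16) and E2f4 (0.63) rose.

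Of the E2F targets of S phase all 12 were measured. After WT naïve stimulation 11 of 12 rose, with a median of 2.22 beside 0.01 for all probes, led by Cdc6 (3.06), which loads the replicative helicase, and Tyms (2.66), which makes thymidylate. In resting Th2 cells 11 of 12 were above resting naïve cells, led by Rrm2 (2.73) and Cdc6 (2.66). After Th2 stimulation 5 of 12 fell in WT and 2 of 12 in BAF180-deficient cells, and none rose. Those in the WT were led by Tyms (-1.62) and Mcm4 (-1.08).

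Of the list of cyclins E and A and CDK activation 6 of 8 genes were measured, and 4 rose with WT naïve stimulation. Both E cyclins, the partners of CDK2, were among them, Ccne1 with 1.88 and Ccne2 with 1.74. After Th2 stimulation 1 gene of this list rose, Cdc25a (0.86), a phosphatase that activates CDK2. In resting Th2 against resting naïve cells 3 were higher, led by Ccne1 (1.65) and Ccne2 (1.44). Of the 8 genes of mitosis 4 were measured, and all 4 were higher after naïve stimulation, led by Cdk1 (2.74) and Plk1 (2.31), and in resting Th2 cells, led by Top2a (3.39) and Cdk1 (3.07). After Th2 stimulation 3 fell, led by Top2a (-1.77) and Plk1 (-1.45).

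Of the 5 genes of cyclin and inhibitor turnover 4 were measured. Fbxw7 (0.70) and Skp2 (0.69), both parts of ubiquitin ligases, rose with WT naïve stimulation, and Gsk3b, a kinase that marks cyclin D1 for export and decay, was lower at -1.10. After Th2 stimulation Fbxw7 was called in the WT, at 0.67, and between the resting states Gsk3b, at -0.90. Without BAF180 no gene of this list was called higher after either stimulation, while no interaction of the list was called.

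Of 9 genes upstream of the D cyclins 8 were measured. After WT naïve stimulation 3 rose, led by Il2ra (3.04), a chain of the high-affinity IL-2 receptor, and Myc (1.42), and 3 fell, led by Fos (-5.75) and Klf2 (-5.71), a factor of quiescent T cells. After Th2 stimulation 3 rose, led by Stat5a (3.01) and Myc (2.13), and Klf2 (-4.68) fell. In resting Th2 against resting naïve cells Il2ra (2.87) was higher and 3 genes were lower, led by Fos (-5.22) and Jun (-3.25). No gene of the 9 lists was called between genotypes in any state. The list median of the INK4 inhibitors was 0.37 in stimulated Th2 cells, beside 0.00 for all probes, and 0.02 in resting naïve cells. In Th2 cells the paper lists Rb1 and the member Cdk2 as apparently activated and E2f1, E2f6 and Cdkn2a as apparently repressed by BAF180. It lists Cdkn1a as repressed in naïve cells, and its RT-PCR found Cdkn2b higher in restimulated BAF180-deficient Th2 cells. The paper also names Cdkn1a and Cdkn2a as repression targets by that RT-PCR. The median genotype difference of the RB family list was -0.31 in resting and -0.05 in stimulated Th2 cells, beside 0.00 for all probes. A gene that was not called can still lie in the paper's direction, and the reason for the different calls was not tested.

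**Figure D5:**
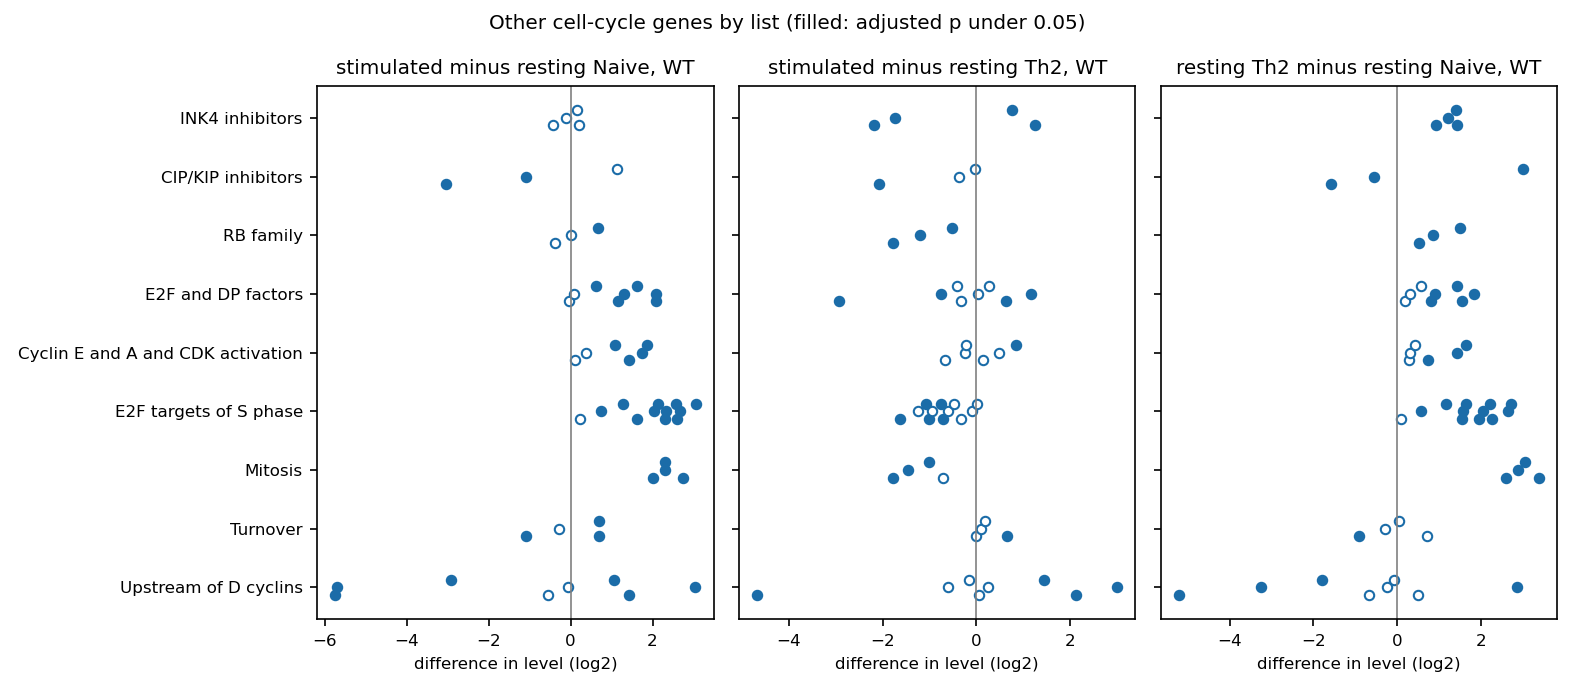
Difference in level (log2, horizontal axes) of each measured gene of the 9 lists in WT cells, with 1 point per gene from its brightest probe and filled points for an adjusted p under 0.05 in limma. The targets of S phase and mitosis lie to the right of 0 after naïve stimulation and in resting Th2 cells, with 11 of 12 and 4 of 4 called in each, and 5 and 3 of them were called to the left after Th2 stimulation.

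The genes whose levels over the 24 arrays were most like those of a member, by Pearson correlation as a description across arrays that share their groups, were Trmt61a (0.954), Rpf2 (0.942) and Wdr75 (0.938) for Ccnd2. For Ccnd3 they were Pip4p2 (0.950), Oxct1 (0.943) and Triobp (0.942), and for Cdk2 Prim2 (0.951), Fam111a (0.945) and Cep57l1 (0.944). Ccnd1 and Cdk6 were not detected on all arrays and were left out of this search.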

How the data were processed

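Arrays were grouped by the labels into 4 cell states and 2 genotypes. The authors deposited an average bead intensity for 25697 probes from GenomeStudio (version 1.6.0 in the submitters' processing notes), neither normalised nor background-subtracted. The lowest intensity per array lay between 25.8 and 30.3. Beside it the authors deposited the detection p-value per probe and array, computed against negative controls. A probe was kept where 1 array or more reached a detection p no higher than 0.02, which left 14246. This filter and the quantile step can hide changes in total RNA, and dim probes have compressed differences.

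Intensities were background-corrected, offset by 16, log2 transformed and quantile normalised (limma 3.58.1 under R 4.3.3, function neqc). All arrays entered 1 linear model with a mean for each of the 8 groups and moderated variances (16 residual degrees of freedom, 20.3 after moderation), with Benjamini-Hochberg adjustment over all kept probes. Genotype calls needed a p under 0.05, an FDR under 0.3 and a Z-ratio over 1.5 in size, thresholds of the study's methods. Here limma gave p and FDR, and the Z-ratio was taken from normalised log2 differences and not from Z-scores. The further criterion of the methods, a mean signal over 0, was not applied as a separate step. State differences and interactions needed an adjusted p under 0.05. The probe with the highest mean level stands for a gene. Symbols were updated through RefSeq's gene table for all but 321 probes. Promoters came from RefSeq.

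The members and the lists of other genes were chosen with earlier results of these data known. The named genes are the members, Pbrm1, and from each list the genes called with the 2 largest differences in each direction in each WT state comparison. For genes most like a member, the 3 with the highest correlation were taken. Replicate letters were checked as pairs by correlating the deviations of WT and BAF180-deficient arrays of a letter from their group means. Pooled over states the correlation was 0.301, 0.136 and 0.516 for A, B and C. In single states it ran from -0.0026 (B, resting naïve) to 0.66 (C, stimulated Th2). The letters were read as pairs by the pooled values, although the labels do not say that a letter marks a pair of mice. Resting and stimulated Th2 arrays of a letter correlated at 0.023 (WT, A) to 0.43 (BAF180-deficient, C). For naïve cells the values ran from -0.0092 (WT, A) to 0.165 (BAF180-deficient, B). The main fit left the letters out and so took all these arrays as independent, and blocks of the letter were alternatives. Among replicates the correlation across probes was 0.949 to 0.989. Precision is limited by the 3 arrays of a group, with a median SE of 0.193 for a genotype difference. Alternatives were another normalization, background, offset, filter, replicate block, fit and each array left out. A block of the array chip was not run, since no chip is named in the table. The block within a cell state was chosen after seeing the data.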

Additional observations from a re-analysis of the deposited data

How the results depend on the processing

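Depth of signal limits Cdk6, the coding probe of Cdk2 and, outside resting naïve cells, Ccnd1, which sit near background. With median centring the counts of called members were 1 for resting Th2 against stimulated naïve cells in WT and 3 for stimulated Th2 against resting naïve cells without BAF180. The cause was not tested. Leaving out 1 array at a time, the count of members called between genotypes in resting naïve cells ranged from 0 to 1, and the counts of the other comparisons stayed within 1.5 times of their value.

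Differences that had not passed the test changed sign. Under median centring, naïve stimulation gave 0.052 (WT) and 0.14 (BAF180-deficient) for Ccnd3 and -0.73 for Cdk6 in the WT. Resting Th2 against resting naïve cells gave 0.013 for Ccnd2 in the WT. Cdk6, called without BAF180, gave -0.082 in WT and -0.11 in BAF180-deficient cells. With Z-score normalization Ccnd2 in BAF180-deficient resting Th2 against resting naïve cells gave -0.26. Leaving out 1 array at a time, Ccnd2 in WT resting Th2 against resting naïve cells ranged from -0.27 to 0.25, and Ccnd3 after naïve stimulation from -0.36 to 0.042 in WT and from -0.26 to 0.13 in BAF180-deficient cells. The cause was not tested.

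Median centring also moved the share of higher calls among all probes. It went from 53.7 to 20.1% for naïve stimulation without BAF180 (median of all probes -0.71) and from 54.3 to 16.3% for resting Th2 against resting naïve cells (-0.68). For Th2 stimulation without BAF180 it went from 46.5 to 62.2% (0.41), for stimulated Th2 against resting naïve cells from 52.3 to 22.4% in WT (-0.72) and to 39.7% without BAF180 (-0.47), and for stimulated Th2 against stimulated naïve cells without BAF180 from 45.6 to 59.6% (0.27). Of the few genotype calls, 33.3% were higher in resting and 15.4% in stimulated Th2 cells, against 56.5% of 23 and 0% of 15 with Z-score normalization. Median centring called 0, 2, 5 and 5 probes in the 4 states, so that no share is given for resting naïve cells. Of these calls 20% were higher in resting Th2 cells and 0% in the stimulated states, against 33.3% in resting Th2, 50% in stimulated naïve and 15.4% in stimulated Th2 cells.

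In a further fit the replicate letter was a block in the model, with the effect of a letter shared by all states. There the difference of Cdk6 between WT resting Th2 and resting naïve cells was called (0.66, adjusted p = 0.041 in limma). No other call of a member changed. With the letter within each cell state as a block, a choice made after seeing the data, 592, 32, 136 and 44 probes were called between genotypes in naïve cells (resting, then stimulated) and Th2 cells (in the same order), where 97, 16, 12 and 13 were called without it. In both of these fits 0 members were called. Over the planned settings with all arrays, the probes called in the same 4 states numbered 0 to 122, 0 to 23, 1 to 62 and 0 to 18, and with 1 array left out 84 to 616, 3 to 15, 2 to 37 and 5 to 36.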
